A study of Mus musculus with 16 samples.

Results

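The 40 genes described here encode the machinery of mitosis in mouse hair follicle stem cell (HFSC) organoids. They were chosen by name, with earlier results of these data known, though no difference between groups entered the rule. Each was followed on 1 transcript, the one with the most ribosome footprints over the 8 Ribo-seq libraries. The choice also asked for a mean of at least 10 RNA-seq counts, which all 40 named genes and 12256 of the 22612 genes in the data reached. Cells of C57BL/6J mice were grown as 3D-3C organoids for 2 weeks and sorted into alpha6+/CD34- progenitors and alpha6+/CD34+ HFSCs, from cultures left untreated or given N1-acetylspermidine (N1-AcSpd), an acetylated polyamine, for the last 72 h. RNA-seq, which counts messages, and Ribo-seq, which counts the message fragments covered by a ribosome (footprints), were made from the same lysates. The 16 libraries comprise 4 groups with n = 2 in each assay. Replicates 1 and 2 are 2 donor mice (AG53 and AF95), so the model is limited to 2 animals and to cells cultured outside the skin and sorted on surface proteins.

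Entry into mitosis is driven by cyclin-dependent kinase 1 bound to A and B type cyclins. Polo-like and Aurora kinases then build the spindle, kinetochores join chromosomes to it, and the spindle checkpoint holds back the anaphase promoting complex until every chromosome is attached. Kinesin motors, the central spindle and the contractile ring separate the daughter cells. Messages of these genes are known to be made mainly in late S phase, G2 and mitosis, under a promoter element called the CHR (cell cycle genes homology region) that is bound by the MuvB complexes, often beside CCAAT boxes bound by NF-Y. In the resting hair follicle, bulge stem cells divide rarely and are known to enter the cell cycle at the start of hair growth. In a bulk sample, fewer dividing cells and less of a message per cell cannot be told apart.

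Promoter sequences are shown because the members share these elements, which the choice of genes did not use. RefSeq windows of GRCm38.p6 from 250 bases before to 50 bases after a gene's start were matched to 34 of the 40 members (37 windows). The letters searched were TTTGAA (the CHR), TTCGAA (a variant of it) and CCAAT, on both strands, and none of these motifs contains another. The 120 bases before the start are given for Cdk1 (chr10:69352913-69353032), Cdc20 (chr4:118437344-118437463), Top2a (chr11:99024190-99024309) and Ccnb2 (chr9:70421555-70421674), all on the minus strand, with the motif letters in capitals. TTCAAA and ATTGG are TTTGAA and CCAAT read on the other strand.
Cdk1: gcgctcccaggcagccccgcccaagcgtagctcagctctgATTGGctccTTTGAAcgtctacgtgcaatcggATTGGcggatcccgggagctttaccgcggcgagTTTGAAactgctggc
Cdc20: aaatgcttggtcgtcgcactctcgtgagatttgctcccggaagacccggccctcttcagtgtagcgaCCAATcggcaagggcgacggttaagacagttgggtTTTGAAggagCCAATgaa
Top2a: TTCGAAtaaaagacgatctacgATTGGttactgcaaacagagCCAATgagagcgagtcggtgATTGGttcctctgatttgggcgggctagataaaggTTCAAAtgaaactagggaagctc
Ccnb2: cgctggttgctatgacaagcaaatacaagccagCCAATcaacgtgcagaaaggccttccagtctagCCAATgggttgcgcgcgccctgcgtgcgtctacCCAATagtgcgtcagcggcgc

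The 120 bases shown hold 2 or 3 CCAAT boxes in each of the 4 genes and a TTTGAA in 3 of them. In many other members a CHR also stood close to the start, on either side of it. To show this, 30 bases around the element are given with its letters in capitals, for Plk1 (chr7:122159453-122159482, plus strand), Bub1 (chr2:127831828-127831857, minus strand), Cenpf (chr1:189688067-189688096, minus strand), Kif23 (chr9:61946780-61946809, minus strand), Prc1 (chr7:80294434-80294463, plus strand) and Ube2c (chr2:164769888-164769917, plus strand).
Plk1: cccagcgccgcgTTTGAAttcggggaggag
Bub1: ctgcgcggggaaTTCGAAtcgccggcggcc
Cenpf: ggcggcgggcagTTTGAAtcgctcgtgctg
Kif23: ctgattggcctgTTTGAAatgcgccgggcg
Prc1: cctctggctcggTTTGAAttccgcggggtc
Ube2c: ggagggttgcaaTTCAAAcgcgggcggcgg

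TTTGAA was present in 81.1% of the 37 member windows and in 17.9% of all 32851 promoter windows. The variant was in 8.11% against 1.56%, and CCAAT in 75.7% against 37.4%. A CHR of either form together with CCAAT stood in 70.3% of the member windows and 7.52% of all. A CHR lay within 50 bases of the start in 75.7% of the member windows and in 5.31% of all. These are counts of letters, not of bound factors.

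The sort was checked on its own markers. Cd34 was at 2.4 to 5.4 CPM (counts scaled to a common library size with edgeR's TMM factors) in the 4 progenitor RNA-seq libraries and at 67.4 to 89.9 CPM in the 4 HFSC libraries. The 10 HFSC identity markers summed to 379.7 to 614.0 CPM in progenitors and 776.3 to 1566.2 CPM in HFSCs. Among other cells the gate could hold, 8 melanocyte markers summed to 7.9 to 13.8 CPM and 7 immune markers to 0.3 to 3.7 CPM (Cd207, Lyz2 and Tyrobp at 0). The 5 endothelial markers summed to 1.0 to 2.4 CPM (Cdh5 and Emcn at 0). The 7 fibroblast markers (Lum at 0) summed to 1.4 to 55.8 CPM, and Vim alone made 42.2 of the 55.8 CPM. Their sum and that of the immune markers were higher in replicate 2 of both progenitor groups and of untreated HFSCs. In N1-AcSpd HFSCs both sums were higher in replicate 1. Col1a1, Col1a2, Col3a1, Pdgfra and Vim each had this order. RNA-seq libraries held 21612795 to 31524062 counts on the transcripts kept and Ribo-seq libraries 34475 to 268052, so footprint values carry far more counting error.

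One library pair stands apart and touches every member. In RNA-seq all 40 members were higher in replicate 1 than in replicate 2 in untreated progenitors (median 1.44-fold), untreated HFSCs (1.48-fold) and N1-AcSpd progenitors (1.74-fold). In N1-AcSpd HFSCs all 40 were higher in replicate 2, by a median of 1.53-fold. In Ribo-seq of the same N1-AcSpd HFSC lysates, 35 of 40 were higher in replicate 1, by a median of 1.68-fold, against 55.7% of all genes. Ribo-seq of untreated cells held no clear order between mice. There 21 of 40 members in progenitors (36.0% of all genes) and 25 of 40 in HFSCs (36.9%) were higher in replicate 1. In N1-AcSpd progenitors 32 of 40 were (47.7%). The RNA-seq reversal was also present outside the mitosis genes. Over 12216 genes without the members, the log2 difference between mice correlated at 0.35 to 0.59 (Pearson's r across genes, which are not independent) among the 3 other groups and at -0.57 to -0.39 with N1-AcSpd HFSCs. The fibroblast and immune markers ran opposite to the members in all 4 groups, and their part in the members' values was not tested. Whether the replicate numbers of this RNA-seq pair were crossed was not tested, and within-mouse values that use the pair depend on them. The labels were kept as deposited, and results that use the N1-AcSpd HFSC libraries are also given within each mouse.

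Summed over the 40 members, RNA-seq levels in replicates 1 and 2 were 4174.0 and 2907.2 CPM in untreated progenitors. They were 5538.1 and 3584.2 CPM in untreated HFSCs, 3835.1 and 2280.8 CPM in N1-AcSpd progenitors, and 3225.1 and 4732.2 CPM in N1-AcSpd HFSCs. The groups overlapped, with the 2 mice far apart in each. The lowest RNA-seq value of all 40 members was in N1-AcSpd progenitor replicate 2, and the highest was in untreated HFSC replicate 1 for 32 members and in N1-AcSpd HFSC replicate 2 for 8. The lowest and highest libraries differed by 1.48-fold for Bub3 and 3.75-fold for Nusap1.

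**Figure D1:**
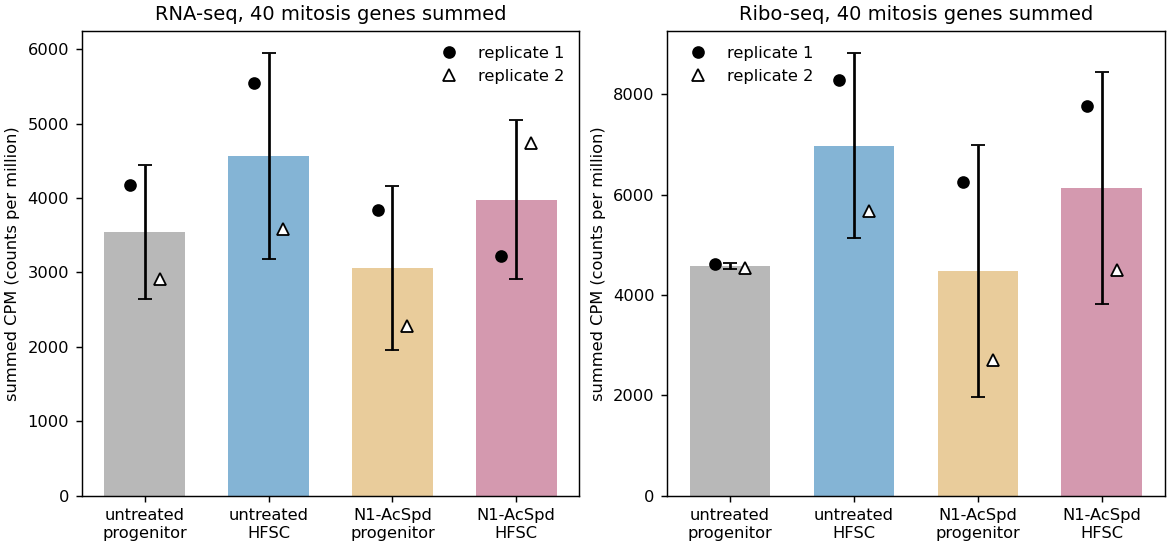
Summed level of the 40 mitosis genes (vertical axis, CPM) in each of the 4 groups, RNA-seq on the left and Ribo-seq on the right, with bars for the mean, error bars for the SD (n = 2), filled circles for replicate 1 and open triangles for replicate 2. In RNA-seq the circle is above the triangle in 3 groups and below it in N1-AcSpd HFSCs, at 3225.1 against 4732.2 CPM, whereas in Ribo-seq it is above it in all 4 groups.

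**Figure D2:**
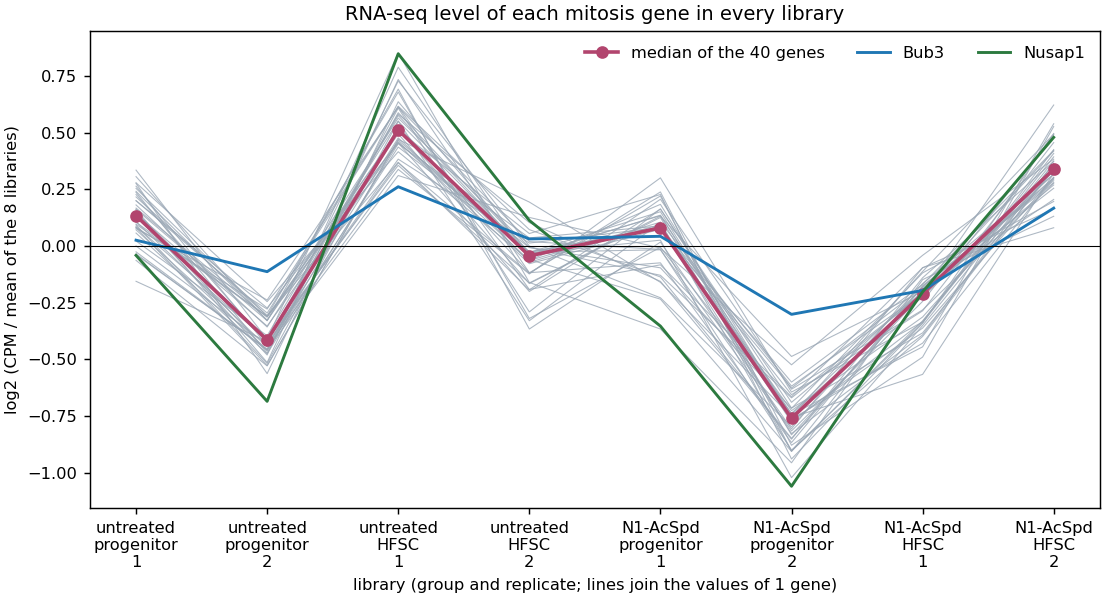
RNA-seq level of each member in each library (vertical axis, log2 of CPM over the mean of the 8 libraries), with 1 grey line per gene, the median of the 40 genes in purple, Bub3 in blue and Nusap1 in green. The lines run together from library to library, and every member is lowest in N1-AcSpd progenitor replicate 2.

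The first comparison asks how HFSCs and progenitors differ in mitosis messages. All 40 members were higher in HFSCs, in untreated cells by a median of 1.30-fold (0.38 on the log2 scale, against -0.01 for all 14224 genes tested) and with N1-AcSpd by 1.29-fold (0.37 against 0.00). No member passed the test of edgeR (adjusted p under 0.05) in either, where 0.148% and 0.745% of all genes did. An unadjusted p under 0.05 was reached by 2 of 40 members in each, no more than the 9.58% and 11.2% of all genes, and DESeq2 called 0 in both. With the mouse as a block and the numbers of the N1-AcSpd HFSC libraries exchanged, an alternative chosen after their order was seen, edgeR called 16 of 40 in each comparison and 32 over both treatments. Of all 14224 genes that fit called 752 in untreated cells, 903 with N1-AcSpd and 1950 over both treatments. The smallest p-values between untreated cells belonged to Nusap1, Aurkb and Kif18b, with edgeR's adjusted p of 0.462, 0.488 and 0.560. With N1-AcSpd they belonged to Aurkb, Nusap1 and Ube2c, at 0.383, 0.404 and 0.471. The members move together, so the count of 40 in 1 direction rests on the same 2 animals and not on 40 separate observations.

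Within each mouse, by the replicate numbers as deposited, the treatments parted. The values with N1-AcSpd rest on the library pair whose order between mice was reversed. In untreated cells 38 of 40 members were higher in HFSCs in both mice, where 31.7% of all genes were, with medians of 0.39 and 0.32 on the log2 scale in the mice of replicates 1 and 2. With N1-AcSpd 6 of 40 were higher in both mice, against 23.5% of all genes. There the member median was -0.33 in the mouse of replicate 1 and 1.09 in that of replicate 2. Without both N1-AcSpd HFSC libraries the untreated median was 0.39, again with 0 members called.

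Over both treatments all 40 members were again higher in HFSCs, by a median of 1.28-fold (0.35 against -0.01 on the log2 scale). By edgeR 0 of 40 passed the threshold, where 3.91% of all genes did, and 9 of 40 had an unadjusted p under 0.05, against 18.1% of all genes. DESeq2 called 4 of 40, against 6.68% of all genes: Nusap1 (adjusted p = 0.00279), Aurkb (0.00774), Prc1 (0.0331) and Ube2c (0.0477). Within each mouse the median was 0.04 for replicate 1, with 23 members higher, and 0.74 for replicate 2, with 40 higher.

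Mitotic entry genes came to a median log2 difference of 0.40 between HFSCs and progenitors over both treatments (5 of 5 higher, 0 called). Cdk1, the kinase that starts mitosis, was at 94.0 and 69.7 CPM in replicates 1 and 2 of untreated progenitors and at 143.8 and 93.9 CPM in untreated HFSCs. With N1-AcSpd it was at 94.6 and 54.4 CPM in progenitors and at 80.8 and 134.4 CPM in HFSCs, so the cell types overlapped under both treatments. Overlap here and below compares libraries across mice, without pairing, and 38 of 40 members were higher in untreated HFSCs within both mice. Cdk1 was among them, at 143.8 against 94.0 CPM and 93.9 against 69.7 CPM. Its log2 difference was 0.53 ± 0.23 (SE; edgeR's adjusted p = 0.268). Ccnb1, cyclin B1, was likewise highest in untreated HFSC replicate 1 and lowest in N1-AcSpd progenitor replicate 2, at 129.0 and 84.6 CPM against 168.4 and 119.7 CPM untreated and at 128.9 and 77.4 CPM against 100 and 167.2 CPM with N1-AcSpd. The phosphatase Cdc25c, which activates Cdk1, was scarcer, at 19.1 and 15.9 CPM against 30.3 and 22.1 CPM untreated and at 24.9 and 11.1 CPM against 16.8 and 30 CPM treated. Untreated HFSCs lay above untreated progenitors in both libraries for Cdc25c, while for Ccnb1 the ranges crossed. Ccnb2, cyclin B2, had the smallest log2 difference of the group, 0.16, and Ccna2, cyclin A2, was at 0.37.

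Of the mitotic kinases, Plk1, the polo-like kinase, was at 117.1 and 83.9 CPM in untreated progenitors and 148.1 and 102.3 CPM in untreated HFSCs. In N1-AcSpd cells it was at 110.4 and 58.8 CPM and at 79.5 and 134.3 CPM, so the cell types overlapped under both treatments. Aurka, the spindle pole Aurora kinase, was at 56.4 and 38.3 CPM against 72.6 and 46.9 CPM untreated and at 59.3 and 27.2 CPM against 40.5 and 66.0 CPM treated. Their log2 differences over both treatments were 0.33 ± 0.24 and 0.32 ± 0.27 (SE), and that of Tpx2, which activates Aurora A, was 0.27.

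The chromosomal passenger complex, which corrects faulty attachments, held the member with the second smallest p-value. Aurkb, its kinase, was at 50.8 and 36.8 CPM in untreated progenitors and 73.5 and 60.7 CPM in untreated HFSCs, and at 47.5 and 31.5 CPM against 49.1 and 74.7 CPM with N1-AcSpd. The cell types did not overlap under either treatment. Its log2 difference over both was 0.63 ± 0.18 (SE; 1.55-fold; edgeR's adjusted p = 0.100). Birc5 (survivin), which docks the complex on chromosomes, was at 54.5 and 37.7 CPM against 71.6 and 53.7 CPM untreated and at 55.7 and 31.3 CPM against 38.5 and 76.1 CPM treated. Incenp, the scaffold, and Cdca8 (borealin) had log2 differences of 0.39 and 0.15.

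The spindle checkpoint held the most even member. Bub3, which brings checkpoint kinases to kinetochores, stayed within 107.0 to 158.0 CPM in the 8 libraries. It was at 134.2 and 121.9 CPM in untreated progenitors, 158.0 and 134.7 CPM in untreated HFSCs, 135.8 and 107.0 CPM in N1-AcSpd progenitors and 115.1 and 148.0 CPM in N1-AcSpd HFSCs. Bub1, a checkpoint kinase, was at 48.7 and 29.8 CPM against 63.0 and 33.8 CPM untreated and at 46.3 and 25.2 CPM against 31.7 and 52.2 CPM treated. Bub1b (BubR1), part of the complex that blocks Cdc20, was at 93.9 and 61.5 CPM against 128.9 and 85.8 CPM untreated and at 96.6 and 52.7 CPM against 75.4 and 109.7 CPM treated. The cell types overlapped for Bub1 and Bub1b under both treatments and for Bub3 with N1-AcSpd, while untreated HFSCs lay just above untreated progenitors for Bub3. The group median was 0.28 on the log2 scale (5 of 5 higher, 0 called), with Mad2l1 at 0.28 and Ttk at 0.30.

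Cdc20 and Ube2c, an activator and the ubiquitin-conjugating enzyme of the anaphase promoting complex, were the most abundant members per length, at 116 and 102 CPM per kilobase of transcript on average. Cdc20 was at 223.5 and 152.4 CPM in untreated progenitors and 262.2 and 190.5 CPM in untreated HFSCs, and at 255.5 and 132.8 CPM against 164.5 and 278.5 CPM with N1-AcSpd. Ube2c was at 96.4 and 71.9 CPM against 133.6 and 98.3 CPM untreated and at 90.3 and 62.1 CPM against 85.5 and 151.9 CPM treated. Untreated HFSCs lay above untreated progenitors in both libraries for Ube2c, whose log2 difference over both treatments was 0.55 ± 0.21 (SE; edgeR's adjusted p = 0.199), but not for Cdc20 (0.23 ± 0.25).

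Kinetochore genes had a median log2 difference of 0.40 (6 of 6 higher, 0 called). Cenpf, a large protein of the outer kinetochore, was at 130.8 and 78 CPM in untreated progenitors and 187.1 and 92.8 CPM in untreated HFSCs, and at 80.5 and 53.5 CPM against 93.6 and 113.6 CPM with N1-AcSpd. Ndc80, which binds microtubules, was at 29.9 and 23.3 CPM against 43.3 and 29.7 CPM untreated and at 25.7 and 15.7 CPM against 24.7 and 33.7 CPM treated. For Cenpf the treated cell types did not overlap. Cenpa, the histone variant that marks centromeres, was at 88.4 and 56.2 CPM against 97.4 and 69.5 CPM untreated and at 89.1 and 41.1 CPM against 53.8 and 108.8 CPM treated. Of the rest, Spc25, a partner of Ndc80, was highest at a log2 difference of 0.57, with Nuf2 at 0.33 and Cenpe, a kinetochore motor, at 0.28.

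Among the mitotic kinesins, Kif11 (Eg5), which pushes spindle poles apart, was at 71.3 and 44.7 CPM in untreated progenitors and 106.1 and 58.8 CPM in untreated HFSCs. With N1-AcSpd it was at 60.6 and 35 CPM against 56.5 and 77.4 CPM. Kif2c (MCAK), which takes microtubules apart at kinetochores, was at 48.4 and 38.9 CPM against 70.1 and 46.5 CPM untreated and at 45.4 and 24.6 CPM against 34.8 and 58.3 CPM treated. Both overlapped between cell types under either treatment, and the 5 kinesins had log2 differences from 0.26 (Kif15) to 0.50 (Kif11).

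For cytokinesis, Kif23, a motor of the central spindle, was at 56.5 and 31.6 CPM against 72.5 and 45.6 CPM in untreated cells and at 47.5 and 23.0 CPM against 36.6 and 60.0 CPM with N1-AcSpd. Anln (anillin), the scaffold of the contractile ring, was at 247.9 and 176.5 CPM against 327.7 and 220.8 CPM and at 207.4 and 135.0 CPM against 204.2 and 254.0 CPM. Both crossed between cell types under either treatment. Prc1, which bundles the midzone microtubules, had the largest log2 difference of the 7, 0.58 ± 0.21 (SE), and Kif20a the smallest, 0.23.

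Top2a, the topoisomerase that untangles chromosomes, was at 295.3 and 192.0 CPM in untreated progenitors and 462.4 and 257.0 CPM in untreated HFSCs, and at 227.7 and 143.0 CPM against 236.8 and 328.5 CPM with N1-AcSpd. The treated cell types did not overlap, and the log2 difference over both treatments was 0.59 ± 0.23 (SE; edgeR's adjusted p = 0.228). Mki67, the coat protein of mitotic chromosomes known as the proliferation marker Ki-67, was at 565.2 and 400.9 CPM against 753.2 and 430.9 CPM untreated and at 464.6 and 310.5 CPM against 460.4 and 551.0 CPM treated. Nusap1, a spindle protein that binds microtubules and chromosomes, had the largest log2 difference of all members, 0.85 ± 0.24 (SE; 1.80-fold; edgeR's adjusted p = 0.0999). It was at 41.7 and 26.7 CPM against 77.2 and 46.4 CPM untreated and at 33.6 and 20.6 CPM against 37.3 and 59.8 CPM treated, without overlap under either treatment.

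**Figure D3:**
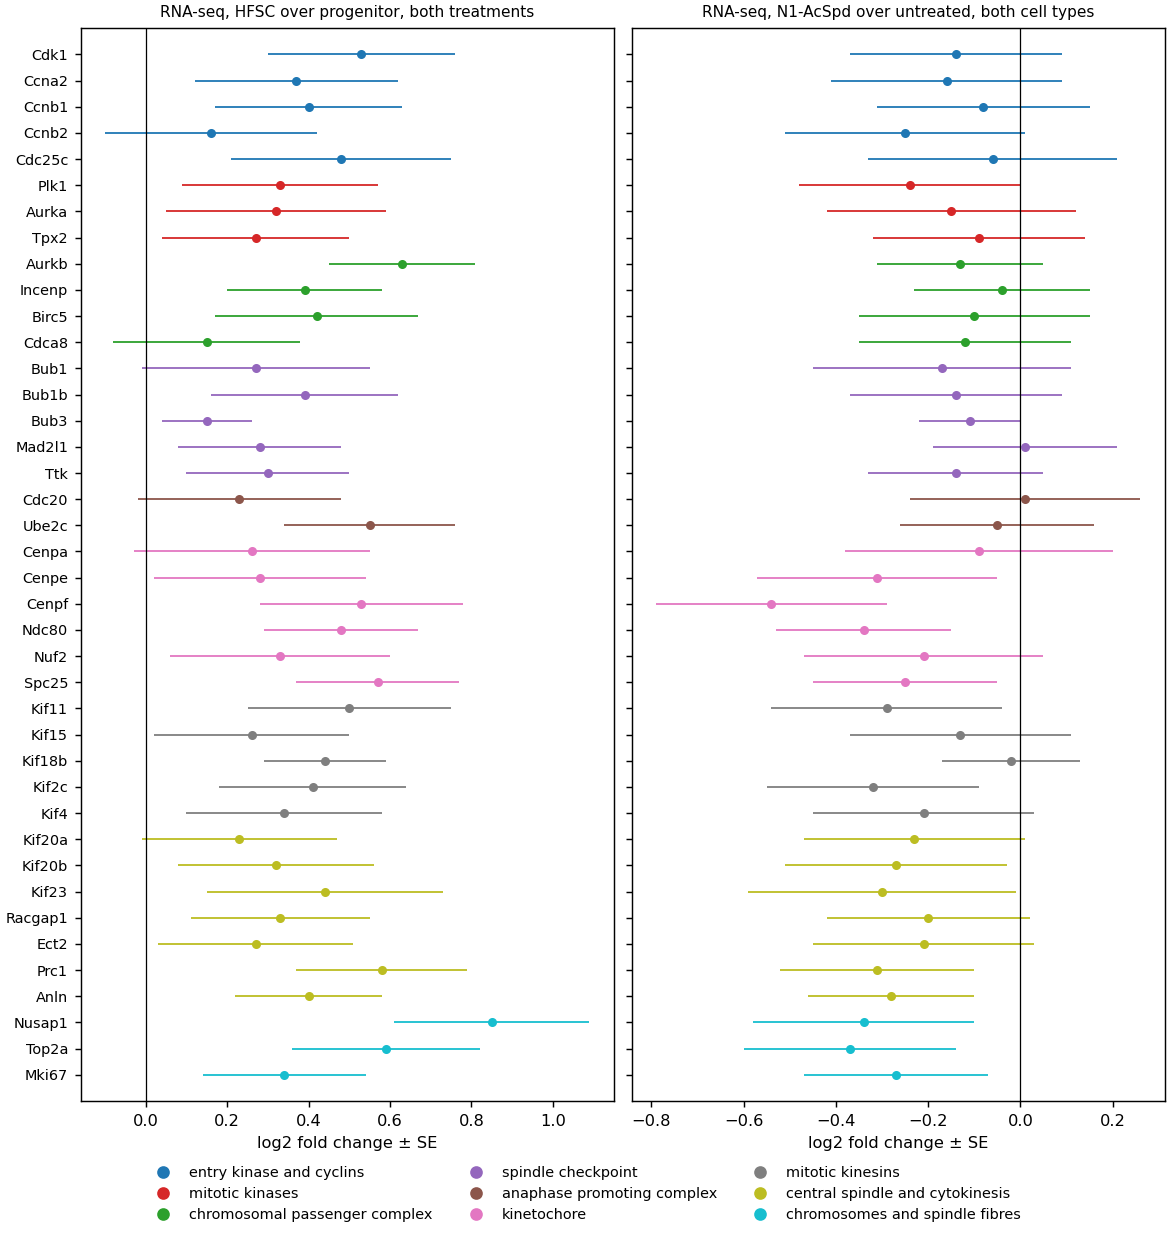
Log2 fold change with its SE (horizontal axis) for each of the 40 members in RNA-seq, coloured by role, for HFSCs over progenitors across both treatments (left) and N1-AcSpd over untreated across both cell types (right). On the left every point lies above 0, from 0.15 (Cdca8) to 0.85 (Nusap1), and on the right 38 of 40 lie below 0, none past the threshold of edgeR.

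The second comparison asks what 72 h of N1-AcSpd did to the members. Their RNA-seq levels were lower for 38 of 40 in progenitors and for 38 of 40 in HFSCs, with medians of -0.15 and -0.19 on the log2 scale (0.90- and 0.88-fold) against -0.01 for all genes in both. EdgeR called 0 of 40 in either, against 0.239% and 0% of all genes, and 0 of 40 reached an unadjusted p under 0.05, against 8.87% and 7.73%. DESeq2 called 0 in both. Across both cell types the median was -0.18, with 38 of 40 lower, 0 called (1.64% of all genes) and 0 with an unadjusted p under 0.05 (15.6%), and DESeq2 called 0. Single libraries turned these directions. The progenitor median was 0.17 without N1-AcSpd progenitor replicate 2 and 0.10 without untreated progenitor replicate 1, with 33 and 29 of 40 members then higher. The HFSC median was 0.17 without untreated HFSC replicate 1 and 0.06 without N1-AcSpd HFSC replicate 1, with 39 and 25 higher. Over both cell types the median ranged from -0.44 to 0.01 as a library or mouse was left out.

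Cenpf had the lowest values of the treatment comparison, with log2 differences of -0.64 ± 0.35 (SE) in progenitors, -0.43 ± 0.35 in HFSCs and -0.54 ± 0.25 over both, and edgeR's adjusted p of 0.679, 0.844 and 0.341. By p-value Ndc80 followed, at -0.36, -0.32 and -0.34. Next came Top2a in progenitors (-0.39) and over both cell types (-0.37), and Prc1 in HFSCs (-0.31). Mad2l1 and Cdc20 were the members that lay above 0 over both cell types, each at 0.01.

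By the replicate numbers as deposited, the 2 mice did not share these differences in HFSCs. In progenitors 27 of 40 members were lower in both mice, against 31.4% of all genes, with medians of -0.07 in the mouse of replicate 1 and -0.36 in that of replicate 2. In HFSCs 0 of 40 were lower in both mice, against 25% of all genes, since all 40 were lower in the mouse of replicate 1 (median -0.82) and all 40 higher in that of replicate 2 (median 0.39). Without both N1-AcSpd HFSC libraries the progenitor median was -0.14. The summed level of 15 late epidermal differentiation genes was higher with the treatment in both cell types. They summed to 524.4 and 539.6 CPM in untreated and 1441.7 and 1203.5 CPM in N1-AcSpd progenitors, and to 237.1 and 352.4 CPM in untreated and 452.6 and 493.4 CPM in N1-AcSpd HFSCs, without overlap in either. The part of that difference in the members' values was not tested.

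Whether the treatment acted differently in the 2 cell types was tested as an interaction. In RNA-seq its member median was 0.00, with 20 of 40 above 0, 0 called by edgeR (0% of all genes) and 0 by DESeq2. No member reached an unadjusted p under 0.05, against 0.83% of all genes, and the smallest p-values belonged to Ube2c, Cenpf and Cdc25c (edgeR's adjusted p = 1.0 for each). Within mice, by the replicate numbers as deposited, the interaction had opposite signs, with member medians of -0.68 for replicate 1 and 0.79 for replicate 2.

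**Figure D4:**
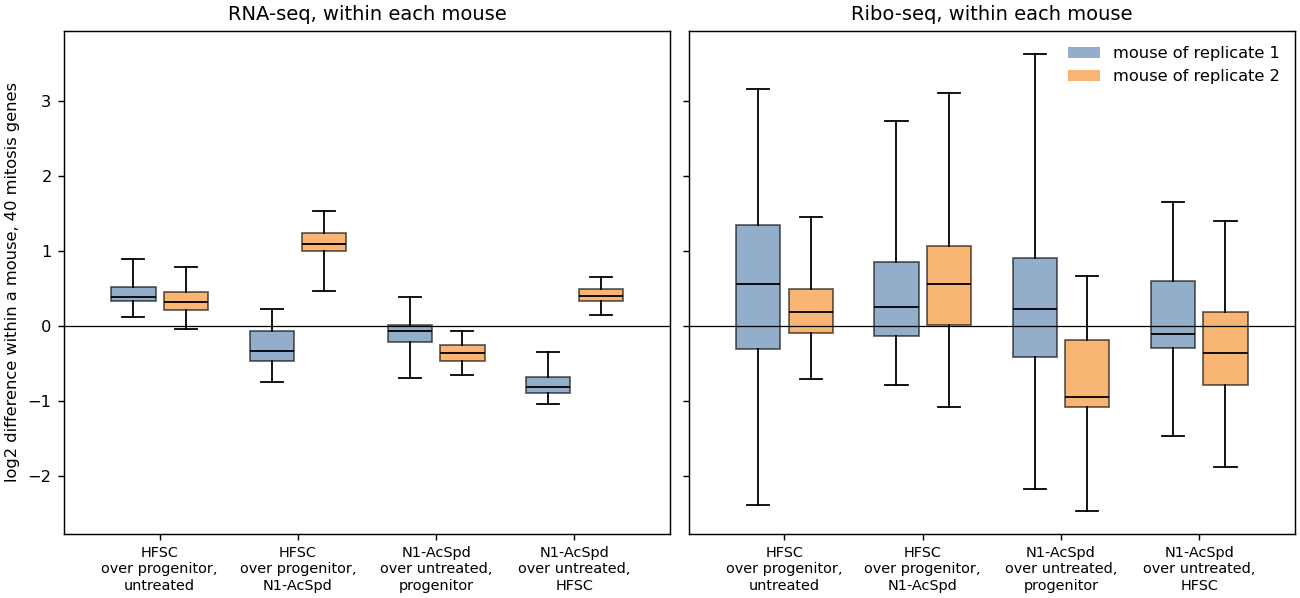
Log2 difference within each mouse (vertical axis) for the 40 members, as boxes (median and quartiles) with whiskers to the lowest and highest gene, for 4 comparisons in RNA-seq (left) and Ribo-seq (right), blue for the mouse of replicate 1 and orange for that of replicate 2. In untreated RNA-seq the medians of the 2 mice are 0.39 and 0.32, whereas in the RNA-seq comparisons with N1-AcSpd HFSCs they lie on opposite sides of 0.

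Footprints of the members were few, from 20 (Kif11) to 398 (Ube2c) over the 8 Ribo-seq libraries. In all, 29 members had a footprint in every library, and 14 of the 320 values were 0. A library with 0 footprints allows up to 3 counts, and these limits cover counting error only. Among the libraries that held a 0, 3 counts are worth 37.4 CPM (N1-AcSpd progenitor replicate 1) to 76.1 CPM (untreated progenitor replicate 1). Summed over the members, footprints were at 4614.8 and 4539.2 CPM in untreated progenitors and 8274.9 and 5674.9 CPM in untreated HFSCs. With N1-AcSpd they were at 6250.2 and 2703.3 CPM in progenitors and 7759.6 and 4492.7 CPM in HFSCs. The untreated groups did not overlap, and the treated groups did.

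In footprints 30 of 40 members were higher in untreated HFSCs than in untreated progenitors, 34 of 40 with N1-AcSpd and 35 of 40 over both treatments. The medians were 0.46, 0.40 and 0.41 on the log2 scale, against -0.02, 0.03 and 0.00 for the 8440 genes tested. EdgeR called 0 members in each, against 0.0118%, 0.0355% and 0.154% of all genes. An unadjusted p under 0.05 was reached by 4, 3 and 5 of 40 members, against 2.64%, 3.45% and 4.14% of all genes. DESeq2 called 0 in each, and over both treatments it gave no adjusted p for 35 members. Higher in HFSCs in both mice were 20 of 40 members untreated, against 21.8% of all genes, and 20 of 40 with N1-AcSpd, against 27.5%. Within mice, the medians were 0.56 and 0.18 untreated and 0.26 and 0.56 with N1-AcSpd, so in footprints the median lay above 0 in both mice under both treatments.

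The smallest footprint p-values between untreated cells belonged to Cdk1, Incenp and Ube2c. Cdk1 footprints were at 126.8 and 259.8 CPM in untreated progenitors and 862.7 and 408.8 CPM in untreated HFSCs, a log2 difference of 1.44 ± 0.47 (SE; edgeR's adjusted p = 1.0). With N1-AcSpd they were at 561.4 and 116.1 CPM in progenitors and 462.6 and 335.3 CPM in HFSCs. Cdk1 thus separated the cell types in untreated libraries and not in treated ones. Ube2c footprints were at 253.6 and 361.3 CPM against 915.5 and 408.8 CPM untreated and at 598.8 and 248.8 CPM against 722.0 and 502.9 CPM treated, again overlapping only with N1-AcSpd. Incenp was at 76.1 and 125.9 CPM against 352.1 and 224.4 CPM untreated, without overlap, and at 262.0 and 165.8 CPM against 322.4 and 150.9 CPM treated, with overlap.

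With N1-AcSpd the smallest p-values belonged to Nusap1, Cenpa and Anln, with log2 differences between cell types of 1.83 ± 1.15, 1.86 ± 1.44 and 0.94 ± 0.47 (SE; edgeR's adjusted p = 1.0 for each). Nusap1 footprints were at 25 and 0 CPM in N1-AcSpd progenitors and 98.1 and 100.6 CPM in N1-AcSpd HFSCs, and Cenpa footprints at 0 and 16.6 CPM against 112.2 and 33.5 CPM. Anln footprints were at 349.3 and 165.8 CPM against 665.9 and 352.0 CPM. Nusap1 and Anln did not overlap between treated cell types, though Anln nearly did. The progenitor values of Nusap1 and Cenpa lie below what 3 counts are worth in those libraries, and so does the value of Cenpa in N1-AcSpd HFSC replicate 2, so its groups could not be told apart at this depth.

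N1-AcSpd gave no common direction in footprints. The member medians were -0.17 in progenitors (17 of 40 higher), -0.14 in HFSCs (16 higher) and -0.06 over both (15 higher), with 0 called by edgeR in each against 0.0237%, 0% and 0.0829% of all genes, and 0 by DESeq2. Unadjusted p-values under 0.05 numbered 2, 0 and 0 of 40, against 2.83%, 3.54% and 4.85% of all genes. Lower in both mice were 12 of 40 members in progenitors (23.6% of all genes) and 11 of 40 in HFSCs (21.7%). In the mouse of replicate 2 the progenitor median was -0.96, and in that of replicate 1 it was 0.22.

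Bub1b and Kif11 had the smallest p-values of the treatment in progenitors. Bub1b footprints were at 0 and 97.4 CPM in untreated progenitors and 224.6 and 165.8 CPM in N1-AcSpd progenitors, a log2 difference of 1.27 ± 0.67 (SE; edgeR's adjusted p = 0.999). Kif11 had 0 footprints in both N1-AcSpd progenitor libraries and 50.7 and 36.5 CPM (11 counts) in the untreated ones. A floor of 3 counts over that group, with its 2 libraries pooled and without TMM factors, is worth 20.5 CPM. On that pooled scale the untreated progenitors (36.4 CPM) lay 1.77-fold and N1-AcSpd HFSCs (28.3 CPM, 6 counts) 1.38-fold above it. These folds leave out the counting error of the 11 and 6 counts, so they are not lower limits. With TMM factors, N1-AcSpd HFSCs were at 28.0 and 33.5 CPM. Both values lie below what 3 counts are worth in either N1-AcSpd progenitor library (37.4 and 49.8 CPM), so those groups could not be told apart. Cenpa was the next, at -1.46 ± 1.51. In HFSCs the smallest p-values of the treatment belonged to Ttk (1.25), Spc25 (1.13) and Cdk1 (-0.58), all with edgeR's adjusted p = 1.0. The interaction in footprints had a member median of -0.16, with 0 called by edgeR (0% of all genes) and by DESeq2. It reached an unadjusted p under 0.05 for 4 of 40 members, against 2.73% of all genes, with Kif11, Cenpa and Bub1b first.

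Translational efficiency, the footprints of a gene relative to its message, was tested as the interaction of assay and group. Between HFSCs and progenitors the member medians were 0.02 untreated, 0.17 with N1-AcSpd and 0.07 over both, and for the treatment they were 0.02 in progenitors, 0.20 in HFSCs and 0.20 over both. All genes had medians of -0.05, 0.08, 0.00, -0.14, -0.01 and -0.05 in the same order. EdgeR called 0 members and 0% of all genes in each of the 6 comparisons, and DESeq2 called 0 members, giving no adjusted p for 39 of them in the last. Unadjusted p-values under 0.05 were found for 1 member untreated (5.23% of all genes), 0 with N1-AcSpd (6.25%) and 0 over both (6.01%). For the treatment they were found for 0 members in progenitors (6% of all genes), 1 in HFSCs (6.9%) and 0 over both (7.35%).

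The members concerned were Spc25, at a log2 difference in efficiency of -1.88 ± 0.83 (SE; edgeR's adjusted p = 0.908) between untreated cell types, and Ttk, at 2.05 ± 0.89 (adjusted p = 0.712) with N1-AcSpd in HFSCs. Ttk footprints were at 177.5 and 44.7 CPM in untreated progenitors, 17.6 and 24.0 CPM in untreated HFSCs, 37.4 and 49.8 CPM in N1-AcSpd progenitors and 98.1 and 50.3 CPM in N1-AcSpd HFSCs. Spc25 footprints were at 126.8 and 56.8 CPM, 17.6 and 32.1 CPM, 12.5 and 66.3 CPM and 56.1 and 117.3 CPM in the same order. Both were lowest on average in untreated HFSCs, and their N1-AcSpd HFSC values lay above the untreated HFSC values. The untreated HFSC values were 1 and 3 footprints for Ttk and 1 and 4 for Spc25. In untreated HFSC replicate 1, 3 counts are worth 52.8 CPM. That is above the lower N1-AcSpd HFSC value of Ttk (50.3 CPM), so its groups could not be told apart at this depth. For Spc25 the lower N1-AcSpd HFSC value (56.1 CPM) lies just above that limit, which leaves out the counting error of the treated value. Over the summed members the ratio of footprint to message CPM was 0.949 to 2.41, and both ends were N1-AcSpd HFSC libraries, 2.41 in replicate 1 and 0.949 in replicate 2, where the RNA-seq order is reversed. The other 6 libraries lay between 1.11 and 1.63.

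Members differed widely in how many footprints they had per message. With the counts of the 8 libraries of each assay pooled, the share of footprints over the share of messages was 0.224 for Ccnb1 (24 footprints) and 4.57 for Ube2c (398 footprints), at percentiles 2.87 and 97.8 of 8439 genes. Kif11 (0.355, 20 footprints) and Mki67 (0.418, 180 footprints) were next to the lower end, and Birc5 (4.21, 194 footprints) and Cdk1 (3.63, 307 footprints) next to the upper end. Within 1 pathway the kinase Cdk1 and its partner cyclin Ccnb1 thus stood at opposite ends. In all, 26 of 40 members lay above the median of all genes, with a member median of 0.48 on the log2 scale against 0.25. With counts summed over all transcripts of a gene, 25 of 40 did, with Ccnb1 at 0.186 and Ube2c at 5.25. The ratio is not corrected for the untranslated part of a transcript, which gives messages but few footprints.

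**Figure D5:**
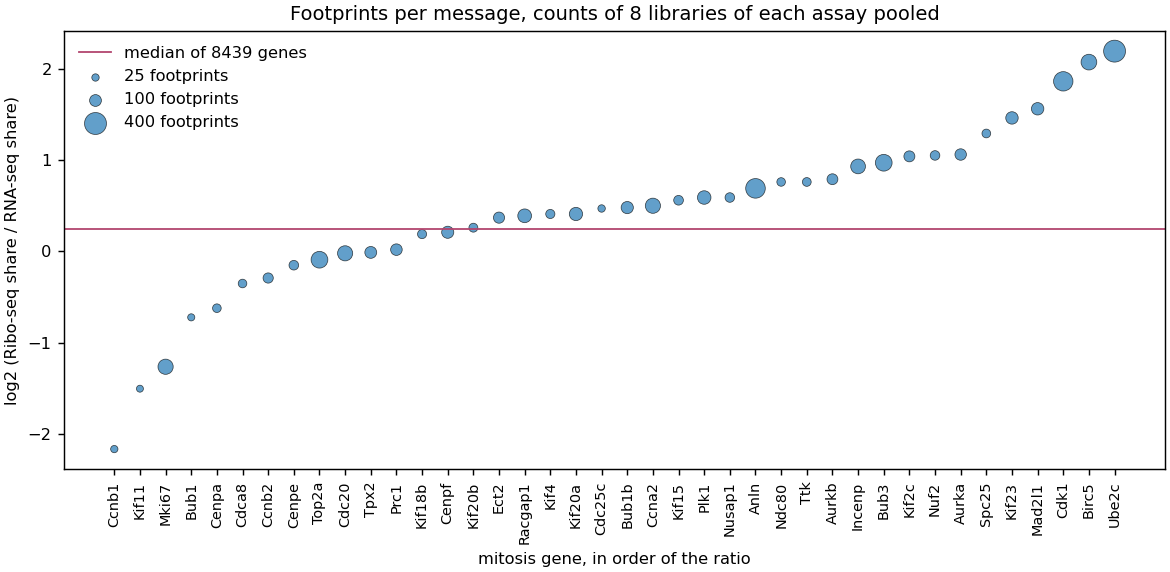
Footprints per message (vertical axis, log2 of the Ribo-seq share over the RNA-seq share, 8 libraries of each assay pooled) for the 40 members in order, with the area of a point growing with the number of footprints and the horizontal line at the median of 8439 genes. Ccnb1, Kif11 and Mki67 are lowest, and Cdk1, Birc5 and Ube2c highest.

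Genes that work with the members were described from 3 further lists. Of 131 other mitosis genes (further subunits of the anaphase promoting complex, condensin, cohesin, kinetochore, spindle, cytokinesis and entry regulators), 110 had higher RNA-seq levels in HFSCs over both treatments, with a median log2 difference of 0.23, and 98 had lower levels with N1-AcSpd (median -0.09). Of all genes 48.8% were higher in HFSCs and 47.1% higher with N1-AcSpd. Condensin, which compacts chromosomes, was higher in HFSCs for 8 of 8 subunits and lower with N1-AcSpd for 8 of 8, none of them called by edgeR. By edgeR 1 of the 131 passed in HFSCs against progenitors, where 3.91% of all genes did, and 4 by DESeq2, where 6.68% did. For the treatment 0 passed by edgeR (1.64% of all genes) and 0 by DESeq2, with 2 at an unadjusted p under 0.05 (15.6% of all genes). Cdc25b, the phosphatase that starts Cdk1 activation, was 0.61 ± 0.12 (SE) higher on the log2 scale in HFSCs (edgeR's adjusted p = 0.0312). It was at 125.0 and 98.5 CPM in untreated progenitors, 194.0 and 143.7 CPM in untreated HFSCs, 97.8 and 89.6 CPM in N1-AcSpd progenitors and 131.9 and 155.6 CPM in N1-AcSpd HFSCs, so the 4 HFSC libraries lay above the 4 progenitor libraries. Leaving out any 1 of the 8 libraries ended the call in 7 cases (adjusted p up to 0.0882). For the treatment the smallest p-values belonged to Numa1, which anchors spindle poles (-0.24), and Anapc5 (-0.20).

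Of 50 DNA replication genes, whose messages peak before mitosis, 44 were higher in HFSCs (median 0.13) and 35 were higher with N1-AcSpd (median 0.06), against 48.8% and 47.1% of all genes. EdgeR and DESeq2 called 0 in both. An unadjusted p under 0.05 by edgeR was found for 2 and 0, against 18.1% and 15.6% of all genes. Pold1, the catalytic subunit of DNA polymerase delta (0.22), and Prim1, a primase subunit (0.27), had the smallest p-values between cell types, and Orc1 (0.33) and Cdt1 (0.19), which license replication origins, for the treatment.

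The last list held 23 genes, namely G1 cyclins, CDK inhibitors and other regulators such as Cdk4, Rbl2, Btg2, Gas1 and Ccng1. EdgeR called 4 of the 23 over both treatments, 1 higher and 3 lower in HFSCs. DESeq2 called 6, and the shares of all genes were 3.91% and 6.68%. Cdkn1b (p27), an inhibitor of cyclin-dependent kinases, was higher in HFSCs by 0.62 ± 0.08 (SE) on the log2 scale (edgeR's adjusted p = 0.00691). It was at 46.0 and 43.2 CPM in untreated progenitors, 62.8 and 61.8 CPM in untreated HFSCs, 35.8 and 34.5 CPM in N1-AcSpd progenitors and 65.7 and 53.8 CPM in N1-AcSpd HFSCs. Cdkn1b separated all HFSC from all progenitor libraries, and its call held without each of the 8 libraries. With N1-AcSpd alone it was called as well (0.76 ± 0.12; edgeR's adjusted p = 0.0328), but not with the mouse as a block (0.0510) and not in 7 of the 8 cases with a library left out. Ccnd1 (cyclin D1), Ccng1 (cyclin G1) and Cdkn1a (p21) were lower in HFSCs, by log2 differences of -0.44, -0.41 and -0.42 (edgeR's adjusted p = 0.0312, 0.0334 and 0.0366). Each of these 3 calls was lost in 7 of the 8 cases with a library left out (adjusted p up to 0.113, 0.142 and 0.151), and with the mouse as a block those of Ccnd1 (0.0502) and Cdkn1a (0.0594) were lost. For the treatment 0 of 23 were called by edgeR and by DESeq2 and 6 reached an unadjusted p under 0.05 (1.64% and 15.6% of all genes by edgeR), with Rbl2 (-0.33), a pocket protein that represses cell cycle genes, and Cdkn2d (-0.60), an inhibitor of Cdk4 and Cdk6, first.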

How the data were processed

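RNA-seq (ribosomal RNA depleted) and Ribo-seq (RNase I and S7 footprints) of sorted organoid cells were analysed. Reads were trimmed by the authors (flexbar), cleared of rRNA and tRNA (Bowtie 1.2.3) and aligned to GRCm38.p5 (STAR 2.7.3a), and unscaled counts per transcript were deposited. Which region was counted, and how multi-mapped reads were treated, is not given in the sources used here. The deposited tables of differential translation hold the authors' log2 fold changes and p-values, which were not used.

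One transcript per gene was kept (most footprints, then most RNA-seq counts). EdgeR 4.0.16 in R 4.3.3 was used, with TMM normalization, 1 quasi-likelihood model per assay over its 4 groups, a mean of at least 1 count, Benjamini-Hochberg adjustment over all genes, and a prior count of 2 for fold changes. Translational efficiency was the interaction of assay and group, and on simulated data this fit gave somewhat too many small p-values among unchanged genes, so its p-values may be too small. SE is the unshrunk fold change over the square root of F. The biological coefficient of variation was 15.0% in RNA-seq and 34.7% in Ribo-seq. With n = 2, p-values rest on 2 mice.

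The members and lists were chosen with earlier results of these data known. Values in every library are given for 1 to 3 members per role, chosen by role, and for the members with the smallest p per comparison. Of the lists, genes past the threshold or the 2 with the smallest p are named. The same replicate number marks the same mouse by the labels. Differences between mice correlated between groups at 0.35 to 0.59 in RNA-seq for 3 groups and at -0.57 to -0.40 with N1-AcSpd HFSCs (12256 genes), and at 0.02 to 0.11 in Ribo-seq (2261 genes). Alternatives were DESeq2 1.42.0, RLE factors, no minimum or a minimum mean of 10 counts, a prior count of 0.5, counts summed over transcripts, only the libraries compared, the mouse as a block, and each library or mouse left out. Chosen after seeing the data were a block with the N1-AcSpd HFSC numbers exchanged and fits without both N1-AcSpd HFSC libraries. Promoter windows are RefSeq's.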

Additional observations from a re-analysis of the deposited data

How the results depend on the processing

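By edgeR 0 of the 40 members passed the threshold in any comparison with each library left out in turn, with RLE factors, a minimum mean of 10 counts, a prior count of 0.5, only the libraries compared, or sums over transcripts. In RNA-seq over both treatments, HFSC against progenitor, DESeq2 called 4 members and a fit with no minimum count 2 (Aurkb and Nusap1). The cause was not tested. With the mouse as a replicate block, 0 members passed in any comparison, and the RNA-seq median of HFSC over progenitor in both treatments was 0.40. With the numbers of the N1-AcSpd HFSC RNA-seq libraries exchanged in that block, RNA-seq calls among the members were 16 between untreated cell types, 16 with N1-AcSpd, 32 over both, 1 for the treatment in progenitors, 0 in HFSCs and 8 over both, with 752, 903, 1950, 441, 269 and 1260 of 14224 genes called. Over all genes in RNA-seq, edgeR called 21 and 106 between untreated and N1-AcSpd cell types and 556 over both, and 34, 0 and 233 for the treatment in progenitors, HFSCs and both. DESeq2 called 268, 377, 950, 174, 125 and 581 in that order, no minimum count gave 167, 262, 869, 111, 43 and 413, and the replicate block gave 3, 44, 7 and 135 for the comparisons of untreated cell types, of N1-AcSpd cell types, and of the treatment in progenitors and in both cell types.

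Member medians moved most when a mouse or library was left out. In RNA-seq the HFSC over progenitor median ranged from -0.33 to 1.09 with N1-AcSpd, from 0.05 to 0.65 untreated and from 0.04 to 0.74 over both. That of N1-AcSpd over untreated cells ranged from -0.65 to 0.17 in progenitors, from -0.82 to 0.39 in HFSCs and from -0.44 to 0.01 over both. In Ribo-seq the ranges were -0.05 to 1.31 for cell types with N1-AcSpd, -0.96 to 0.22 for the treatment in progenitors, -0.68 to 0.20 in HFSCs, -0.60 to 0.21 over both and -0.58 to 0.82 for the interaction. For translational efficiency they were -0.58 to 1.30 for cell types with N1-AcSpd, -0.93 to 0.50 for the treatment in progenitors, -0.83 to 0.77 in HFSCs and -0.57 to 0.60 over both. Between cell types with N1-AcSpd, the Ribo-seq median was -0.05 without N1-AcSpd progenitor replicate 2, -0.03 without N1-AcSpd HFSC replicate 1 and 1.31 without N1-AcSpd progenitor replicate 1. Depth also limits Ribo-seq, where 10 of 40 members had fewer than 50 footprints in all.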
